A study of Mus musculus with 4 samples.

Results

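The genes described here are STAT factors of resting CD4 T cells together with Cish, Socs2 and Pias1, which act on the same signalling route. They are Stat2, Stat3, Stat4, Stat5a, Stat5b, Stat6, Cish, Socs2 and Pias1, 9 of the 19937 genes that had a probe set naming exactly 1 gene on the array. The members were chosen by name, and where a gene had several probe sets the one of highest mean was taken. This mattered only for Socs2, which had 2 probe sets. All 9 were measured, and no filter on low values was applied to them.

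STAT proteins are latent transcription factors. When a cytokine binds its receptor, receptor-bound Janus kinases (JAKs) phosphorylate a STAT, which pairs with another STAT, enters the nucleus and binds DNA. In T cells STAT5 follows IL-2 and IL-7, STAT6 follows IL-4 and serves Th2 differentiation, STAT4 follows IL-12 and serves Th1 differentiation, STAT3 follows IL-6 and IL-21, and STAT2 follows type I interferon. Cish and Socs2 encode brakes that are themselves switched on by STAT5, and Pias1 encodes a SUMO ligase that binds STATs.

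Expression was measured on 4 Affymetrix Mouse Gene 1.0 ST arrays, 2 of Ifitm-/- cells and 2 of WT cells. Ifitm-/- mice lack the whole family of interferon-inducible transmembrane genes, and the study describes them as on a C57BL/6 background. The study asked what the loss of IFITM proteins does to resting CD4 T cells and their lean to Th1 or Th2. Mice of both genotypes were 6 to 8 weeks old, and CD4 T cells were taken from spleen by negative selection after lysis of red cells with ammonium chloride. For each array the cells of a pair of mice were combined, and replicates came from separate purifications, so that p-values measure the spread between such pools. Values are the log2 of the deposited RMA intensity, which is relative to the whole of each array, and changes are Ifitm-/- minus WT. A gene is called changed at an adjusted p under 0.05 in limma, with Benjamini-Hochberg adjustment over all 34760 probe sets.

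Of the deleted genes Ifitm3 was at 4.61 and 4.36 on the Ifitm-/- arrays, against 9.26 and 8.91 on the WT arrays. Arrays of 1 genotype correlated at 0.991 and 0.993, and arrays of different genotypes at 0.976 to 0.979. Cd4 itself lay between 11.44 and 11.79 on the 4 arrays, and Cd3e between 12.07 and 12.15. The genotypes also differed in sex markers. Xist was at 4.86 and 4.43 in Ifitm-/- cells, against 11.32 and 11.25 in WT cells, and the Y-linked Eif2s3y was at 9.48 and 9.61 in Ifitm-/- cells, against 3.90 and 4.05 in WT cells, so that sex and genotype cannot be told apart in any result below. Markers of other cell types moved with genotype or stood apart on 1 array, mostly without a call. The genotypes did not overlap for 58.7% of all genes, and the counts of markers without overlap are read beside that share. The 4 plasma cell markers had a mean log2 level of 7.40 and 7.35 in Ifitm-/- cells, against 8.19 and 7.83 in WT cells (4 of 4 lower without overlap), and the 5 NK cell markers of 7.55 and 7.28 in Ifitm-/- cells, against 7.08 and 6.69 in WT cells (3 of 5 higher without overlap). The 5 neutrophil markers were at 5.76 and 5.71 in Ifitm-/- cells, against 5.20 and 5.24 in WT cells, with 1 call (Retnlg, change 1.83). The other neutrophil markers changed by only 0.11 to 0.26 and were dim, below the median log2 value of 6.26 on every array. The 3 erythroid markers were at 10.40 and 10.29 in Ifitm-/- cells, against 8.68 and 9.65 in WT cells. Of these, 2 were higher without overlap, Slc4a1 (change 1.68) and Epb42 (1.85), and Alas2 overlapped (-0.004). Of the 5 CD4 T cell markers 4 were higher in Ifitm-/- cells without overlap, 2 of them called (Cd3d and Cd3g). The 4 platelet markers were at 9.15 and 10.47 in Ifitm-/- cells, against 8.99 and 8.54 in WT cells (2 of 4 higher without overlap, Ppbp and Gp9), and Ifitm-/- replicate 2 stood apart. The 5 myeloid markers were at 8.57 and 9.43 in Ifitm-/- cells, against 9.17 and 8.52 in WT cells, and 1 of them, Lyz2, was higher in Ifitm-/- cells without overlap. The 6 B cell markers stood at 8.32 and 8.94 in Ifitm-/- cells, against 9.89 and 8.39 in WT cells. The 2 CD8 T cell markers stood at 7.21 and 7.24 in Ifitm-/- cells, against 7.68 and 7.14 in WT cells. Of these, Cd8a was lower in Ifitm-/- cells without overlap (change -0.55), and Cd8b1 overlapped (0.18). Fewer cells of a type and less RNA per cell cannot be told apart in such bulk RNA.

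Cish and Stat5a fell in Ifitm-/- cells, and the other 7 members were not called. The promoters of these 2 genes are shown because STAT5 is known to bind the palindrome TTCNNNGAA, and only 1 of them holds it. The sequences are RefSeq's (GRCm38.p6, plus strand, 5′ to 3′) and cover 250 bases before the annotated start, to which the 20 bases after it are added for Cish (for Stat5a the first of 2 annotated starts is shown), and capitals mark TTCNNNGAA.
Cish (chr9:107296409-107296678): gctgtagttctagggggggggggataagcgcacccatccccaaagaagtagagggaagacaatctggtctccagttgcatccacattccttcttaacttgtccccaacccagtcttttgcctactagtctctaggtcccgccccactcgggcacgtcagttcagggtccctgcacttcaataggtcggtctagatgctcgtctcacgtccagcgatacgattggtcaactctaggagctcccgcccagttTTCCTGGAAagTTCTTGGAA
Stat5a (chr11:100859406-100859655): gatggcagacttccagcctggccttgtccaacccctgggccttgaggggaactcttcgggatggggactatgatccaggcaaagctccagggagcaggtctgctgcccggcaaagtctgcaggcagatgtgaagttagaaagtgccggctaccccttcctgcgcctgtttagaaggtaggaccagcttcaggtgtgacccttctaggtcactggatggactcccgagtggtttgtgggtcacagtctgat

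In Cish the palindrome occurred 2 times, as TTCCTGGAA at bases 1 to 9 and as TTCTTGGAA at bases 12 to 20 counted from the annotated start. Windows of 300 bases (250 before to 50 after a start) were found for 8 of the 9 members, with 11 windows in all. Socs2 had none and was not searched. Cish was the only one of the 8 with TTCNNNGAA, which reads the same on both strands. The palindrome was present in 8.30% of all 32851 such windows, and 2 or more copies were present in 0.457%. The wider form, TTC and GAA with any 4 bases between them, to which STAT6 is known to bind, was found among these 8 only in the Stat2 window (6.95% of all windows). TTTC followed by any 2 bases and TTTC, or GAAA with the same spacing on the other strand, the core of the interferon-stimulated response element, was found in the Stat2 window and in 1 of 2 Stat4 windows (3.44% of all windows). In Stat2 it lay at bases -222 to -213 counted from the start. None of these matches overlapped another. A match describes the letters only, and the arrays do not measure binding.

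Cish encodes CIS, which binds activated cytokine receptors and dampens STAT5 signalling. Its probe set 10588577 had linear RMA intensities of 225 and 223 in Ifitm-/- cells, against 751 and 731 in WT cells. The values of a genotype lay close together and the genotypes were far apart. On the log2 scale Cish was at 7.81 ± 0.01 in Ifitm-/- cells and 9.53 ± 0.03 in WT cells (SD, n = 2 each), a change of -1.73 (95% interval -1.93 to -1.52, limma adjusted p = 0.0107) or a level 3.31-fold lower. Between 71.5% and 90.2% of probe sets were dimmer than Cish on the 4 arrays, so its value in Ifitm-/- cells was not at the bottom of the range. The 4 plasma cell markers were also lower in Ifitm-/- cells without overlap, and the part of plasma cells or of other admixed cells in the change of Cish was not tested.

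Stat5a encodes 1 of a pair of closely related STAT5 proteins. Probe set 10381172 was at 9.11 and 9.16 in Ifitm-/- cells, against 10.26 and 10.53 in WT cells. Both Ifitm-/- arrays lay more than a log2 unit under both WT arrays. The change was -1.26 (SE 0.12, 95% interval -1.58 to -0.94, limma adjusted p = 0.018), a level 2.39-fold lower. Cish and Stat5a also passed the filter of the study's methods as applied here. It asks for more than a 2-fold change and 250 linear units between the extreme arrays, and 1.28% of all genes passed. Genes under 250 units on every array could not pass. The share among genes as bright as the members was not taken.

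Stat5b, the other STAT5 gene, lies next to Stat5a, with Stat3 on the far side of Stat5a. Probe set 10391286 was at 9.99 and 9.91 in Ifitm-/- cells, against 10.15 and 10.29 in WT cells. The genotypes did not overlap but the gap was narrow, with a change of -0.27 (95% interval -0.52 to -0.02) that was not called (limma adjusted p = 0.161). The difference between the STAT5 genes was set out within each array. Stat5a minus Stat5b on the log2 scale was -0.88 and -0.74 in Ifitm-/- cells, against 0.11 and 0.24 in WT cells. The shift of -0.98 between genotypes had a two-sided exact permutation p of 0.333, the smallest that 2 against 2 arrays allow. Whether probes of these similar genes bind both transcripts was not tested.

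**Figure D1:**
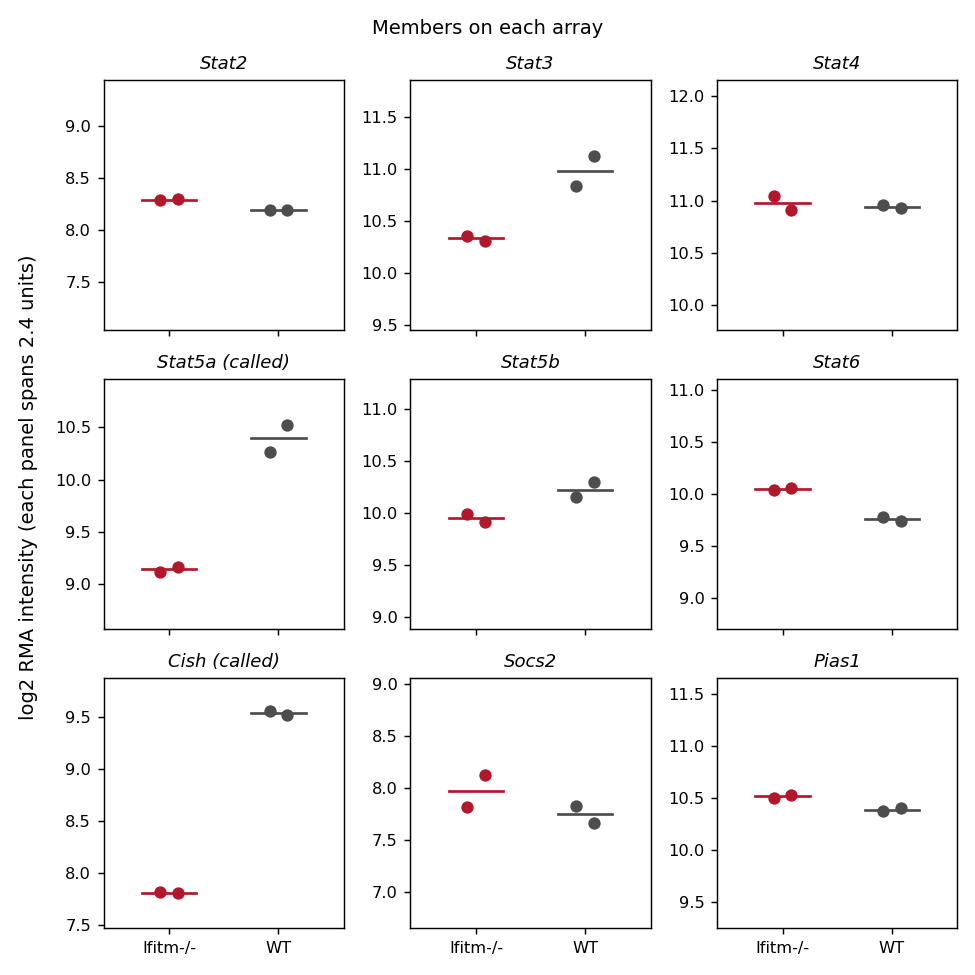
Log2 RMA intensity (y axis) of each member on the Ifitm-/- arrays (red, left) and WT arrays (grey, right); points are arrays, replicate 1 to the left, bars are means of 2, and every panel spans the same height. Cish (7.81 and 7.80 against 9.55 and 9.51) and Stat5a show the widest gaps of the 9, and the points of Stat4 and Socs2 overlap between genotypes.

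Stat3, the factor of IL-6 and IL-21 signalling, lay just beyond the threshold. Probe set 10391301 was at 10.36 and 10.31 in Ifitm-/- cells, against 10.83 and 11.13 in WT cells. Both Ifitm-/- arrays lay below both WT arrays, and WT replicate 1 was the lower of the WT arrays. The change was -0.65 (SE 0.13, 95% interval -0.99 to -0.31, limma adjusted p = 0.0564). It passed in 3 of the 14 alternative settings, namely without dim probe sets (limma adjusted p = 0.0337), over probe sets of 1 gene (0.0282) and with a variance trend (0.0359).

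The factors of the helper lineages did not pass the test. Stat6, which carries the IL-4 signal, was at 10.04 and 10.06 in Ifitm-/- cells, against 9.78 and 9.74 in WT cells. The change of 0.29 (95% interval 0.08 to 0.50) had a limma adjusted p of 0.105, with no overlap between genotypes. Stat4, which carries the IL-12 signal, was at 11.05 and 10.91 in Ifitm-/- cells, against 10.96 and 10.92 in WT cells. Here the genotypes overlapped, and the change of 0.04 had a 95% interval of -0.20 to 0.28 (limma adjusted p = 0.838). The difference between Stat4 and Stat6 was not tested.

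Stat2, a factor of the type I interferon response, was at 8.29 and 8.30 in Ifitm-/- cells, against 8.19 and 8.20 in WT cells. Its replicates lay close together and the change was 0.10 (95% interval -0.10 to 0.30, limma adjusted p = 0.474). Pias1 was at 10.50 and 10.53 in Ifitm-/- cells, against 10.38 and 10.40 in WT cells, a change of 0.13 (95% interval -0.08 to 0.33, limma adjusted p = 0.373). Both genes were slightly higher on each Ifitm-/- array, by less than limma could call.

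Socs2, like Cish a known STAT5 target and a brake on cytokine and growth hormone receptors, was not called. Probe set 10394674 was at 7.81 and 8.12 in Ifitm-/- cells, against 7.83 and 7.66 in WT cells, and Ifitm-/- replicate 1 lay between the WT arrays. The change was 0.22 (95% interval -0.15 to 0.60, limma adjusted p = 0.393). The other probe set of Socs2, 10372069, was dimmer at 6.46 and 6.62 in Ifitm-/- cells, against 6.41 and 6.30 in WT cells, with a change of 0.18. The interval of Cish ended at -1.52 and that of Socs2 began at -0.15, so the 2 intervals did not meet. The difference itself was not tested.

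In all, 2 of the 9 members were called, both lower, where 8.57% of the 19937 genes were called (3.61% lower and 4.96% higher). Brighter genes were called more often, and among the 6019 genes at or above the dimmest member in mean level 18.3% were called. Over probe sets the share was 8.43% (3.95% lower and 4.48% higher). The count of members was read beside these shares with no test of its own. The genotypes did not overlap for 7 members, compared with 58.7% of all genes and 78.0% of those 6019. The median change of the 9 was 0.04, against -0.02 over all genes. At an unadjusted p under 0.05 limma passed 5 members (Cish, Stat5a, Stat3, Stat6 and Stat5b). At that threshold it passed 9187 of the 34760 probe sets, and the share among genes as bright as the members was not taken.

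**Figure D2:**
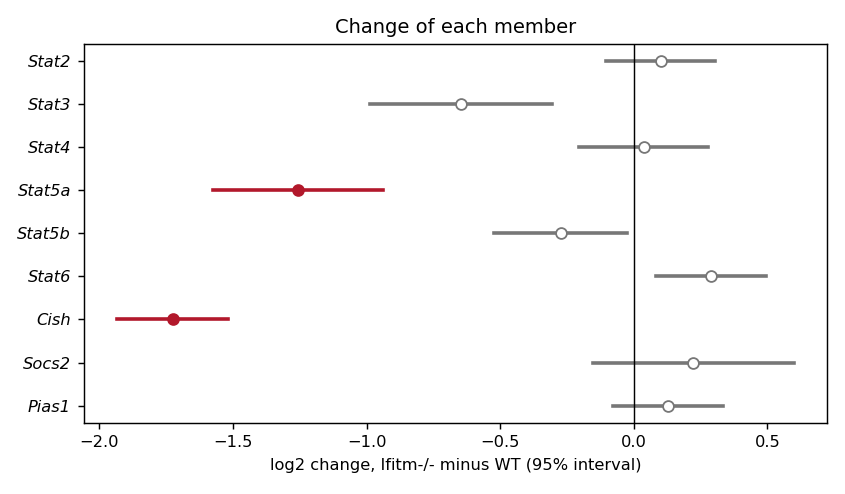
Log2 change of each member (x axis, Ifitm-/- minus WT) with its 95% interval from limma; filled red symbols are called at an adjusted p under 0.05. The intervals of Cish (-1.93 to -1.52) and Stat5a (-1.58 to -0.94) lie farthest from 0, and those of Stat2, Stat4, Socs2 and Pias1 hold 0.

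The sizes of the falls of Cish and Stat5a held with any array left out, but neither call did. The change of Cish stayed between -1.75 and -1.71 and that of Stat5a between -1.39 and -1.13, while the limma adjusted p was 0.0681 to 0.114 for Cish and 0.0757 to 0.114 for Stat5a. With 3 arrays no probe set of the 34760 was called, and 6062 to 9107 passed an unadjusted p under 0.05. The change of Stat3 moved more with the arrays, between -0.80 without WT replicate 1 and -0.50 without WT replicate 2. The change of Socs2 was 0.07 without Ifitm-/- replicate 2 and 0.37 without Ifitm-/- replicate 1, against 0.22 on all arrays. That of Stat4 was -0.032 without Ifitm-/- replicate 1.

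**Figure D3:**
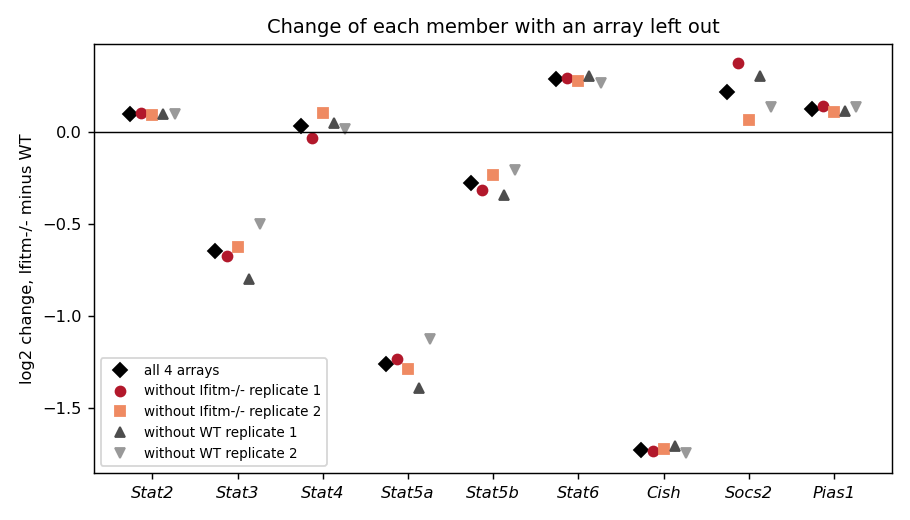
Log2 change of each member (y axis, Ifitm-/- minus WT) from all 4 arrays (black diamonds) and with each array left out in turn (other symbols). Cish stays between -1.75 and -1.71 and Stat5a between -1.39 and -1.13, and Stat4 lies on both sides of 0.

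Other genes of the pathway were examined in 11 lists with 74 distinct genes besides the members, 70 of which were measured. Of these, 17 fell and 6 rose by limma (32.9%), and 47 were not called. The share was 8.57% over all genes and 18.3% over the 6019 genes at or above the dimmest member. Most but not all pathway genes were that bright, and the counts of each list below are read beside these shares. The lists were chosen with earlier results of these data known and got no test as lists. All or some of the CD4 T cell, CD8 T cell, plasma cell, NK cell, neutrophil, erythroid, platelet and myeloid markers parted the genotypes on the same arrays, as 58.7% of all genes did. The part of such cells in these counts was not tested. As for the members, no call of a pathway gene remained with any array left out (27 to 31 of the 70 passed an unadjusted p under 0.05).

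Among receptors that share the common gamma chain, 5 of 7 were called. The IL-4 receptor gene Il4ra (-1.07), the IL-21 receptor gene Il21r (-0.89) and Il2rb (-0.76), the signalling chain for IL-2 and IL-15, fell. Il2ra, the chain that gives the IL-2 receptor its high affinity, rose by 0.51 and the IL-7 receptor gene Il7r by 0.46, with limma adjusted p values of 0.0156 to 0.0472 across the 5. The receptors upstream of STAT5 thus moved in both directions. Of 14 other receptor genes 3 fell and 2 rose. Ifngr2 (-1.84) and Ifngr1 (-1.23), the subunits that bind interferon-γ and signal for it, and the IL-12 receptor chain gene Il12rb2 (-1.06) fell, whereas Il6ra, the IL-6 binding chain, rose by 0.86 and Il27ra, the IL-27 binding chain, by 0.55. Il6st, the signalling chain gp130 used with STAT3, had a change of 0.29 and was not called (limma adjusted p = 0.148).

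Of the Janus kinases measured, Jak2 fell by 0.68 (limma adjusted p = 0.0371), to 9.90 ± 0.02 in Ifitm-/- cells, against 10.58 ± 0.15 in WT cells (SD, n = 2 each). Jak1 had a change of -0.16 and Tyk2 of 0.16, and neither was called. Among the other SOCS genes, whose products brake cytokine receptors, Socs3 fell by 1.08 and Socs6 by 0.58, Socs4 rose by 0.68, and 3 of 6 were not called.

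None of 3 other PIAS genes, 5 phosphatase genes that act on JAKs or STATs and 4 genes of STAT partners was called by limma. At an unadjusted p under 0.05 limma passed 2, 1 and 2 of them, where it passed 9187 of the 34760 probe sets. At the same threshold the methods' t-test passed 0, 1 and 2 of them, and 0 after its adjustment. Pias2 had a change of -0.31 and Pias3 of 0.34. Ptpn2, a phosphatase of STATs and JAKs in T cells, had a change of -0.67 at a limma adjusted p of 0.0516, and Ptpn6 of 0.30. The coactivator gene Ep300 had a change of 0.28 and Nmi, whose product binds STATs, of 0.36.

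Known targets of the STATs were taken factor by factor. Of 13 STAT5 targets 2 fell and 2 rose. The kinase gene Pim1 fell by 1.77, to 10.49 ± 0.03 in Ifitm-/- cells, against 12.26 ± 0.01 in WT cells (SD, n = 2 each, limma adjusted p = 0.0107), and the costimulatory receptor gene Tnfrsf4 by 1.43. The cytokine gene Osm rose by 0.81, and Il2ra, named above, is on this list too. The survival genes Bcl2 (0.10), Bcl2l1 (0.06) and Mcl1 (-0.03) were not called. The known STAT5 targets, with Cish lower and Socs2 not called, therefore had no common direction, and the median change of the 13 was 0.10.

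STAT3 targets fell in 4 of 9 cases and rose in 0. Besides Pim1 and Socs3, these were the AP-1 gene Fosl2 (-2.55) and the nuclear receptor gene Rora (-1.96). At an unadjusted p under 0.05 limma passed 6 of the 9, and the methods' t-test 5 (0 after adjustment). Of 7 STAT4 targets 3 fell and 0 rose. They were Il12rb2, the protease gene Furin (-0.84) and Ifng (-0.65), while Tbx21, the Th1 master factor, had a change of 0.03. Of 6 STAT6 targets 3 fell and 0 rose, namely the chemokine receptor gene Ccr8 (-2.44), Nfil3 (-1.71) and Il4ra, while Gata3, the Th2 master factor, had a change of -0.26 and was not called (limma adjusted p = 0.133). Limma passed 4 STAT4 and 4 STAT6 targets at an unadjusted p under 0.05, as did the methods' t-test, which called 0 of either after adjustment. Whether the targets followed the level of any STAT was not tested.

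**Figure D4:**
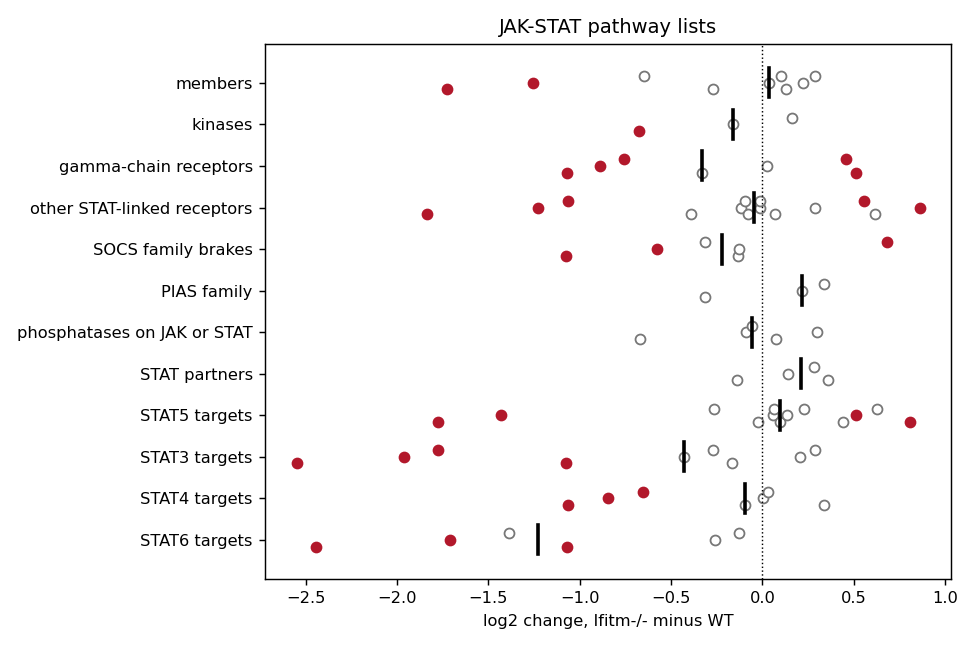
Log2 change (x axis, Ifitm-/- minus WT) of the members and of 11 pathway lists (rows); each circle is a gene, filled red where its limma adjusted p is under 0.05, and black bars are medians; genes on more than 1 list appear in each. STAT5 targets have filled circles on both sides of 0, and the called STAT3, STAT4 and STAT6 targets all lie below 0.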

How the data were processed

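The authors hybridised total RNA of 4 samples to Affymetrix Mouse Gene 1.0 ST arrays and deposited RMA intensities on the linear scale, that is background corrected, quantile normalized and summarised per probe set. The submitters' processing notes name RMA and affy, and their versions are not given in the sources used here. This scaling removes shifts shared by all genes. The median intensity was 74.8 to 78.1 per array, and the number of arrays limits the precision. Log2 values of 34760 probe sets were tested in R 4.3.3 with the lmFit and eBayes functions of limma 3.58.1 (2 residual and 2.39 prior degrees of freedom), and the fit was checked on simulated data. By the platform annotation 21640 probe sets had 1 gene, 1321 had several and 11799 had no gene name. Gene IDs gave current symbols, and promoter sequences were matched by symbol in RefSeq tables of GRCm38.p6. The array values name no build. The genes named were the 9 members, every called gene of a pathway list and, in lists with none, the 2 of smallest p; any other gene was picked with its value in view. The members and lists were chosen with earlier results of these data known. The alternatives were quantile normalization done again, median centring, leaving out dim probe sets, testing only those with 1 gene, eBayes with trend or robust, a block on replicate number, Student's test as the methods' t-test, the mean over probe sets, and each array left out. Genes outside the annotation were not analysed here.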

Additional observations from a re-analysis of the deposited data

How the results depend on the processing

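The number of members called was 2 or 3 under repeated quantile normalization, median centring, leaving out dim probe sets, testing only those with 1 gene, eBayes with trend or robust and the mean over probe sets, and pathway genes called were 22 to 26 under those of them that were run for pathway genes. Median centring moved the split of called probe sets to 1801 higher and 1192 lower, against 1557 and 1373 in the fit of the report. The methods' t-test was run here on log2 values, with Benjamini-Hochberg adjustment over all probe sets. The study's own array-wide calls came instead from empirical Bayes statistics with a false discovery rate. So adjusted, the t-test called 0 members, 0 pathway genes, 4 probe sets and, with the fold and range filter, 0 probe sets (6 members, 32 pathway genes and 6811 probe sets at an unadjusted p under 0.05). With each array left out in turn, limma called 0 members, 0 pathway genes, 0 probe sets and 0 with the filter throughout. The residual degrees of freedom then fell by construction, and a single array was assumed to vary like those of the other genotype. The replicate number as a block gave 0 members, 0 pathway genes, 0 probe sets and 0 with the filter (4 members, 34 pathway genes and 8016 probe sets at an unadjusted p under 0.05). The deviations of same-numbered arrays had a weak negative correlation (r = -0.124 over probe sets). With 2 arrays a genotype this cannot decide whether the numbers pair the samples, because pairing them the other way reverses the sign by construction. The crossed pairing, chosen after seeing the data, called 2 members, 11 pathway genes and 975 probe sets. The change of Stat4 was -0.032 without Ifitm-/- replicate 1 and up to 0.10 with another array left out, against 0.04 on all arrays; no other member changed sign in the 14 settings. Stat5a minus Stat5b ranged between -1.05 and -0.92 with an array left out. The number of arrays, 2 a genotype, limits what could be called, and signal over background was not analysed here.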
